A study of Mus musculus with 12 samples.

Results

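The genes described here mark the lymphatic vessels and the lymph node stroma that a preparation of fat tissue can hold. They were chosen by name: Prox1, Flt4, Pdpn, Mmrn1, Reln, Ccl21a and Ccl19, which are 7 symbols and 9 of the 55536 genes listed, because Ccl21a and Ccl19 each have a second entry on an unplaced scaffold. RNA was sequenced from the stromal vascular fraction (SVF) of the inguinal fat of 12 male mice of mixed C57BL6/J-129SV background kept at room temperature, with 4 mice in each of 3 groups and 1 library per mouse. The 12-month Pdgfrb-KO mice carried floxed Pdgfrb deleted after tamoxifen by Sma-CreERT2, a Cre that acts in cells that use the smooth muscle actin promoter. The labels give both control groups as wild type. The study's own text instead describes the 12-month controls set against the knockout as Sma-Control mice, which carry Sma-CreERT2 and a Rosa26 reporter without floxed Pdgfrb. For the sequencing it calls the knockout mice tamoxifen-induced and takes the control data from its age comparison. Tamoxifen is not stated there for these 12-month controls, and its part in the knockout comparison was not tested. For the 2-month controls neither the Cre nor tamoxifen is stated in the sources used here. The SVF is what is left of a fat depot after the adipocytes are removed, and the inguinal depot contains a lymph node. Removal of that node is not stated in the sources used here.

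Lymphatic vessels drain fluid, lipid and immune cells from a tissue. Prox1 is the transcription factor that turns venous endothelium into lymphatic endothelium and keeps that identity in the adult, and Flt4 encodes VEGFR3, the receptor through which VEGF-C drives lymphatic growth. Podoplanin (Pdpn), multimerin 1 (Mmrn1) and reelin (Reln) are surface or secreted proteins of these vessels, while the chemokines Ccl21 and Ccl19 draw cells with the receptor Ccr7 into the lymphatics and the T cell zone of the lymph node. Pdpn is not restricted to lymphatics, since lymph node reticular cells, some fibroblasts, mesothelium and some macrophages make it too.

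The values are normalized counts, which the authors made by dividing the count of a gene in a library by a size factor and rounding. They summed to 19.6 to 21.9 M per library. The counts behind them, estimated from the gaps that the division leaves in low values, were 13.8 to 20 M in 12-month Pdgfrb-KO libraries, 21.0 to 29.0 M in 12-month control libraries and 21.4 to 24.8 M in 2-month control libraries. Low genes were therefore read less deeply in the knockout. Differences were tested with limma on log2(value + 1) over every gene that reached 10 in 4 or more of the 8 libraries compared, two-sided, at a Benjamini-Hochberg adjusted p under 0.05. The p-values measure the spread between mice, and both comparisons use the same 12-month controls. As a check of the labels, Pdgfrb had 1882, 2145, 1707 and 1749 normalized counts in 12-month Pdgfrb-KO libraries, against 3000, 4380, 3258 and 2399 in 12-month controls, and it fell by 0.77 on the log2 scale (standard error 0.166, adjusted p = 0.016 from limma). In 2-month controls it had 2349 to 2536. Genes of the cells an SVF should hold were present in every library, with 2388 to 6356 for Pdgfra of fibroblastic progenitors and 8195 to 18865 for Pecam1 of endothelium. In bulk RNA, fewer cells of a type and less RNA per cell cannot be told apart, which holds for every value below.

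Prox1 was lower in older mice and stood lowest in the knockout. Prox1 (ENSMUSG00000010175) lies on chr1:190118035-190170714, minus strand, in GRCm38. It had 71, 53, 72 and 55 normalized counts in 12-month Pdgfrb-KO libraries, 88, 80, 117 and 105 in 12-month controls, and 185, 198, 208 and 171 in 2-month controls. No library of any group reached into the range of another. The mean was 97.5 ± 16.7 in 12-month controls and 190.5 ± 16.1 in 2-month controls (SD, n = 4 each), and Prox1 fell by 0.97 on the log2 scale with age (standard error 0.152, adjusted p = 0.00106 from limma). This call was kept in 18 of 18 alternative fits, with adjusted p between 0.000282 and 0.00521. The knockout mean was 62.8 ± 10.1 (SD, n = 4), a log2 fold change of −0.63 against 12-month controls (95% interval −1.07 to −0.18). That difference did not pass the threshold (adjusted p = 0.0775 from limma, unadjusted p = 0.0101). In a fit of all 12 libraries together its adjusted p was 0.0228, and over all 18 alternatives it ranged from 0.0228 to 0.211. Antisense genes at the Prox1 locus, Prox1os and Gm28172, had values of at most 4.

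Flt4 did not pass the threshold in either comparison. Flt4 (ENSMUSG00000020357, chr11:49609263-49652739, plus strand) had 384, 462, 521 and 563 normalized counts in 12-month Pdgfrb-KO libraries, 455, 703, 673 and 554 in 12-month controls, and 580, 552, 611 and 808 in 2-month controls. The ranges of neighbouring groups overlapped. The log2 fold change with age was −0.10 (95% interval −0.43 to 0.23, adjusted p = 0.661 from limma), so a fall as large as that of Prox1 lies outside this interval. The log2 fold change in the knockout was −0.30 (95% interval −0.66 to 0.06, adjusted p = 0.274 from limma).

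Pdpn moved with age in the opposite direction to Prox1. Pdpn (ENSMUSG00000028583, chr4:143267431-143299564, minus strand) had 514, 387, 405 and 496 normalized counts in 12-month Pdgfrb-KO libraries, 573, 543, 606 and 595 in 12-month controls, and 196, 355, 360 and 219 in 2-month controls. The 12-month controls lay close together and above every library of both other groups. Their mean was 579.2 ± 27.8, against 282.5 ± 87.1 in 2-month controls (SD, n = 4 each), and Pdpn rose by 1.09 on the log2 scale with age (standard error 0.183, adjusted p = 0.00171 from limma). The call was kept in 18 of 18 alternatives, with adjusted p up to 0.0113. In the knockout the mean was 450.5 ± 63.8 (SD, n = 4), a log2 fold change of −0.37 against 12-month controls (95% interval −0.64 to −0.10) that did not pass (adjusted p = 0.0804 from limma, 0.0582 to 0.187 over the alternatives).

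Mmrn1 varied most between mice of one group. Mmrn1 (ENSMUSG00000054641, chr6:60924976-60989378, plus strand) encodes a large secreted glycoprotein that platelets store as well. It had 162, 163, 235 and 255 normalized counts in 12-month Pdgfrb-KO libraries, 151, 169, 453 and 288 in 12-month controls, and 125, 293, 375 and 165 in 2-month controls. Within each control group the highest library was 3.00 times the lowest, where Prox1 differed by 1.46 times in 12-month controls and 1.22 times in 2-month controls. The log2 fold change was 0.14 with age (95% interval −0.77 to 1.05) and −0.27 in the knockout (95% interval −0.97 to 0.43), with adjusted p of 0.832 and 0.628 from limma. Both signs depended on single libraries: without 12-month control replicate 3 the values were −0.17 with age and 0.04 in the knockout.

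Reln was lower in 12-month than in 2-month controls by an amount that passed the test in 2 of 18 alternatives. Reln (ENSMUSG00000042453, chr5:21884454-22344702, minus strand) had 165, 169, 219 and 191 normalized counts in 12-month Pdgfrb-KO libraries, 178, 190, 317 and 280 in 12-month controls, and 333, 232, 424 and 377 in 2-month controls. The 2 control groups overlapped, because 2-month replicate 2 lay inside the 12-month range. The log2 fold change with age was −0.51 (95% interval −0.98 to −0.04, adjusted p = 0.109 from limma). The adjusted p was 0.0406 without 2-month control replicate 2 and 0.0302 with the replicate number as a block, and it reached 0.26 without 2-month control replicate 3. In the knockout the log2 fold change was −0.34 (95% interval −0.78 to 0.10, adjusted p = 0.307 from limma).

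**Figure D1:**
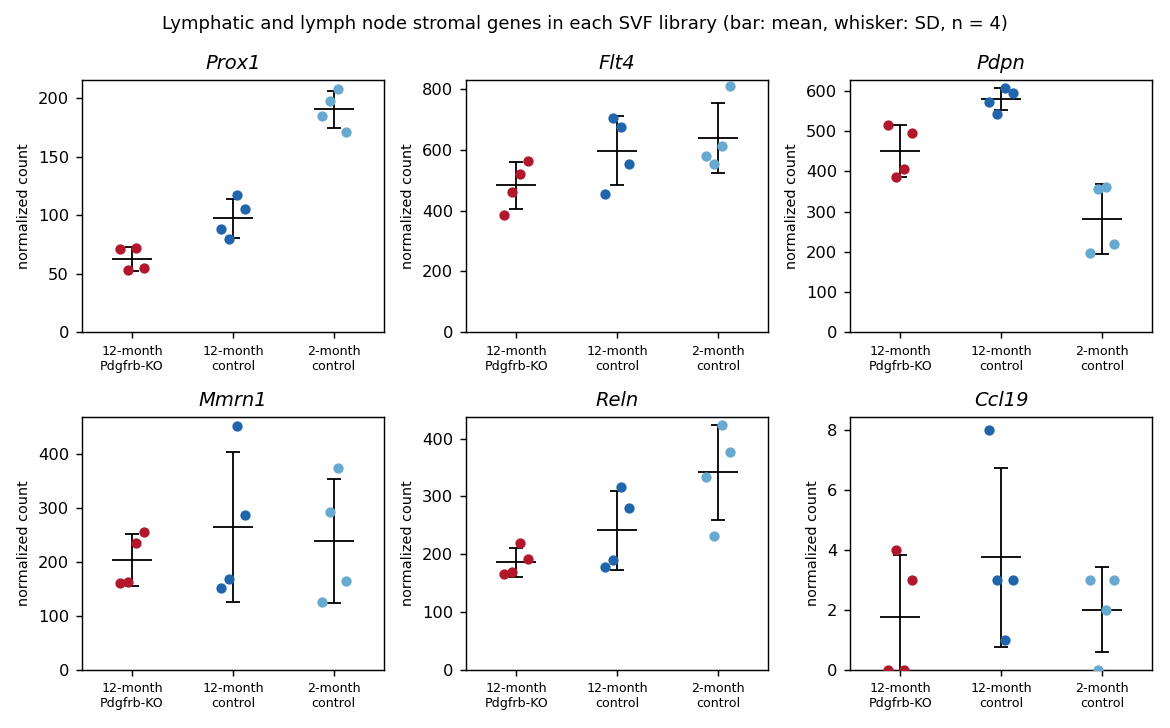
Normalized counts (vertical axes, each from 0) of 6 genes in every SVF library, with 12-month Pdgfrb-KO, 12-month control and 2-month control groups on the horizontal axes. Points are libraries, bars are means and whiskers are SD (n = 4). Prox1 is lowest in the knockout and highest in 2-month controls without overlap, Pdpn is highest in 12-month controls, and Ccl19 stays at 8 or less.

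Counted together, 5 of the 9 genes passed the filter on low values in each comparison. With age 1 of these 5, Pdpn, was higher and 1, Prox1, was lower, where 11.3% of the 16399 genes tested were higher and 11.4% were lower. The groups did not overlap in 2 of 5 genes, where they did not overlap in 24.8% of all genes tested. In the knockout 0 of 5 passed (limma; 2 of 5 at an unadjusted p under 0.05, and 1 of 5 in the fit of 12 libraries), where 4.96% of 16344 genes were higher and 4.46% were lower. All 5 log2 fold changes in the knockout were negative, with a median of −0.34 beside −0.01 over all genes tested. Knockout and 12-month control libraries did not overlap in Prox1 and Pdpn, which is 2 of 5 genes, where 17.1% of all genes tested did not overlap. The genes were few, and these shares are a description. No share over all genes was taken at the unadjusted p, so the count there has no background.

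The Ccr7 ligands were all but absent from the values. Ccl21a on chromosome 4 (ENSMUSG00000094686, chr4:42772860-42773993, minus strand) and its entry on the scaffold JH584294.1 (ENSMUSG00000095320) were listed at 0 in 12 of 12 libraries. Ccl19 on chromosome 4 (ENSMUSG00000071005, chr4:42754525-42756577, minus strand) had 0, 4, 0 and 3 normalized counts in 12-month Pdgfrb-KO libraries, 8, 3, 1 and 3 in 12-month controls, and 3, 0, 2 and 3 in 2-month controls. Its scaffold entry (ENSMUSG00000094661) was listed at 0 in every library. None of these 4 entries passed the filter. A count of 0 allows up to 3 counts, which is a value of 2.06 to 4.76 depending on the library, so most Ccl19 values lie at or near that limit. The limit covers counting error only.

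The zeros of the Ccl21a entries come with a limit, because the gene has near-identical copies. In GENCODE vM21, 71.6% of the 50-base windows of the Ccl21a transcript also occur in a transcript of Ccl21b, Gm10591, Gm13304 or Gm21541, and 50.3% of its 100-base windows do. For Ccl19 the shares were 59.1% and 41.8%, with Ccl19-ps1, Ccl19-ps3, Gm12407 and Gm2564 as the genes that share windows. Scaffold entries are not in the transcript set, so these shares are lower limits. A stretch of the coding sequence shows how little separates the copies. Bases 181 to 240 of the 402 coding bases, counted from the A of the start codon, follow for Ccl21a and for Ccl21b (chr4:42255767-42256432, plus strand), with the base that differs in capitals.
Ccl21a: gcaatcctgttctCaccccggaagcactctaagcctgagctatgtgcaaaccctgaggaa
Ccl21b: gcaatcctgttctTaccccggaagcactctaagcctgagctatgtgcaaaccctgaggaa
The whole coding sequence differs at 2 bases between these genes, T84A and C194T, written with the Ccl21a base first. The copies Gm10591, Gm13304 and Gm21541 carry the same 2 differences from Ccl21a and match Ccl21b over this stretch. All 9 entries of Ccl21a and its copies named in the files (Ccl21b, Ccl21c, Gm10591, Gm13304 and Gm21541 among them) were listed at 0 in every library. So were 21371 of the 55536 genes listed. How the counting tool treated reads that fit several copies is not given in the sources used here, so its part in these zeros was not tested. Over the same locus 4930578G10Rik, on the opposite strand, had values of at most 6.

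Flt4 shared 0.5% and Pdpn 0.1% of their 50-base windows with another gene, and Prox1, Mmrn1 and Reln shared 0%. Genes that overlap Reln on either strand had values of at most 3.

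Other genes of lymph node cells were present in these libraries. Ccr7, the receptor of Ccl21 and Ccl19, had 6229 to 10312 normalized counts in 12-month Pdgfrb-KO libraries, 5489 to 10590 in 12-month controls and 9148 to 11406 in 2-month controls. Over all 12 libraries the T cell gene Cd3e had 669 to 1279, and Cxcl13, the chemokine of B cell follicles, 66 to 1057. Cr2, the complement receptor of follicular dendritic cells and B cells, had 988 to 3149. Cd3e and Cr2 thus had values of at least 669 in each of the libraries in which the Ccl21a entries were at 0.

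**Figure D2:**
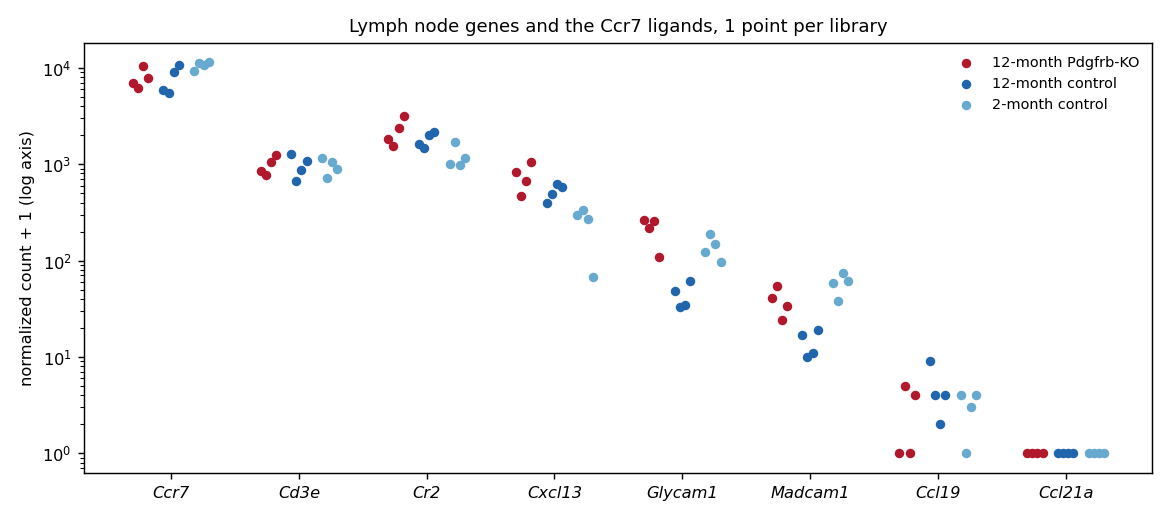
Normalized count + 1 on a log axis for 8 genes (horizontal axis) in every library, colored by group. Ccr7, Cd3e and Cr2 are at 669 or more in every library, Glycam1 and Madcam1 are lowest in 12-month controls, and Ccl19 and Ccl21a sit at the bottom of the axis.

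Levels were compared between genes per kilobase of exons, using the exon length in GENCODE vM21. Pdpn stood highest in every group, at 247.9 ± 35.1 normalized counts per kilobase in 12-month Pdgfrb-KO, 318.8 ± 15.3 in 12-month controls and 155.5 ± 48.0 in 2-month controls (SD, n = 4 each), and its range did not overlap that of the next gene, Flt4. Flt4 followed at 58.6 ± 9.43, 72.4 ± 13.9 and 77.5 ± 14.1 per kilobase in the same groups, and Mmrn1 came next at 34.7 ± 8.24, 45.2 ± 23.7 and 40.8 ± 19.6. Prox1 and Reln were the lowest of the 5. Prox1 had 7.48 ± 1.21 per kilobase in 12-month Pdgfrb-KO, 11.6 ± 1.99 in 12-month controls and 22.7 ± 1.91 in 2-month controls, and Reln had 7.84 ± 1.04, 10.2 ± 2.86 and 14.4 ± 3.45. By this length Prox1 lay above Reln without overlap in 2-month controls, whereas in 12-month controls and in the knockout their ranges overlapped. The exon length joins the exons of all transcripts of a gene. It is 23738 bases for Reln, whose longest transcript has 11699, and 8390 for Prox1, whose longest transcript has 7913. The order of Prox1 and Reln therefore depends on the length chosen. Flt4 and Mmrn1 overlapped in 12-month controls, and Mmrn1 and Prox1 overlapped in 2-month controls.

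**Figure D3:**
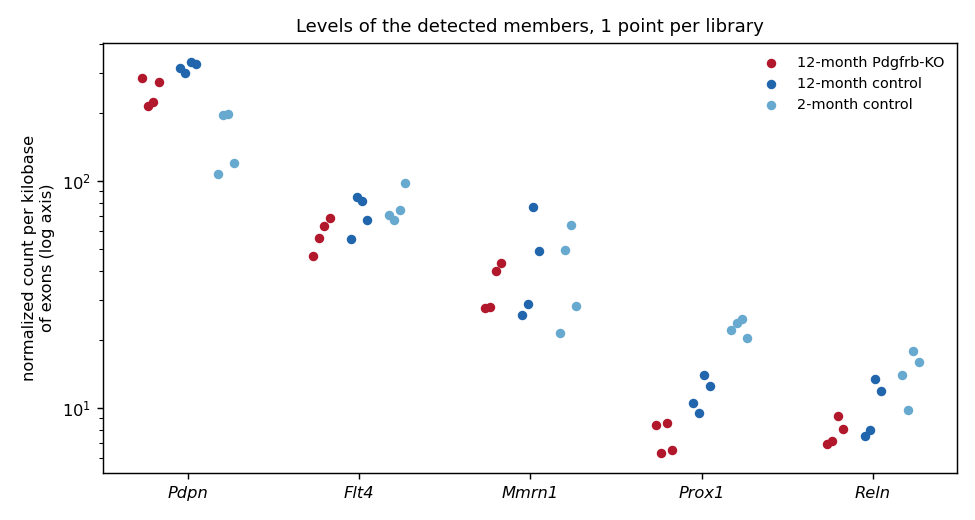
Normalized count per kilobase of exons on a log axis for the 5 detected genes (horizontal axis), with 1 point per library and the 3 groups side by side. Pdpn is highest and Flt4 next in mean level in every group. By the joined exon length Prox1 exceeds Reln in 2-month controls, and both overlap at 12 months, an order that depends on the length used.

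Prox1 did not keep one ratio to Flt4 or to Pdpn between the control ages, while the other ratios taken overlapped there. Ratios within a library do not depend on its size factor, and these were chosen after the values had been seen, so no test is given. Prox1 over Flt4 was 0.185, 0.115, 0.138 and 0.0977 in 12-month Pdgfrb-KO libraries, 0.193, 0.114, 0.174 and 0.19 in 12-month controls, and 0.319, 0.359, 0.34 and 0.212 in 2-month controls. Every 12-month library lay below every 2-month library in this ratio, while the knockout and its controls overlapped. Pdpn over Prox1 was 5.62 to 9.02 in 12-month Pdgfrb-KO libraries, 5.18 to 6.79 in 12-month controls and 1.06 to 1.79 in 2-month controls. Reln over Flt4 and Mmrn1 over Flt4 overlapped between all groups. Prox1 over Reln was 0.288 to 0.43 in 12-month Pdgfrb-KO libraries, 0.369 to 0.494 in 12-month controls and 0.454 to 0.853 in 2-month controls. It overlapped in both comparisons.

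Blood endothelium was compared through 10 genes. Their summed values were 38100 to 59287 in 12-month Pdgfrb-KO libraries, 51555 to 90537 in 12-month controls and 71263 to 98978 in 2-month controls. Per 1000 of this sum, Prox1 was 0.894 to 1.89 in 12-month Pdgfrb-KO libraries, 0.884 to 2.04 in 12-month controls and 1.73 to 2.92 in 2-month controls, so the groups overlapped. Flt4 per 1000 was 6.98 to 13.7 in 12-month Pdgfrb-KO libraries, 7.76 to 10.7 in 12-month controls and 6.78 to 8.57 in 2-month controls, also with overlap. With age 1 of the 10 blood endothelial genes was lower, Vwf, which encodes von Willebrand factor (log2 fold change −1.03, adjusted p = 0.00224 from limma), and 9 did not pass. In the knockout 1 of 10 was lower, the angiopoietin receptor gene Tek (−0.48, adjusted p = 0.0432 from limma). The Tek call was lost without knockout replicates 1, 2 or 3 or without 12-month control replicates 2 or 3, at adjusted p of 0.0667 to 0.127. The median log2 fold change of the 10 genes was −0.31 with age and −0.28 in the knockout, beside −0.01 over all genes tested in each. The part of blood endothelium in the values of Prox1 and Flt4 was not tested.

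**Figure D4:**
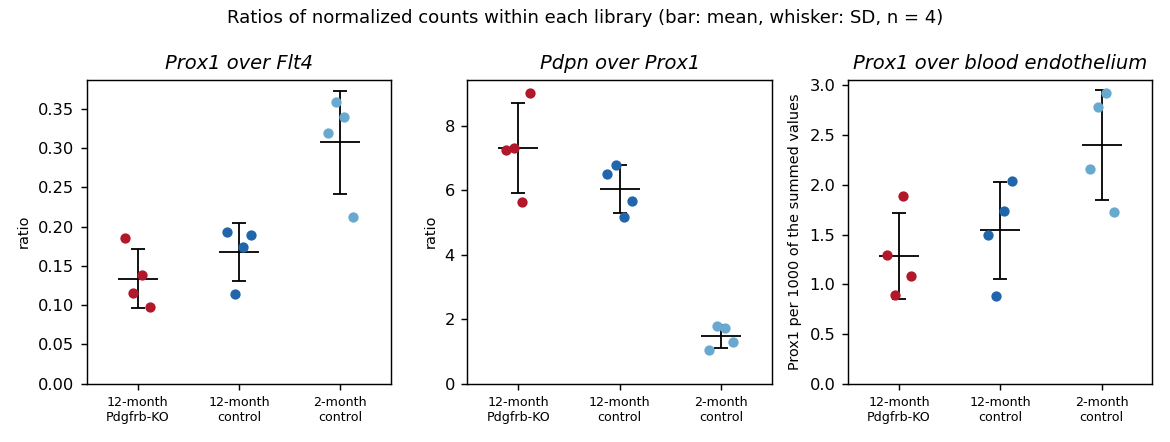
Ratios of normalized counts within each library (vertical axes from 0) for Prox1 over Flt4, Pdpn over Prox1, and Prox1 per 1000 of the summed values of 10 blood endothelial genes, by group. Points are libraries, bars are means and whiskers are SD (n = 4). Prox1 over Flt4 is 0.212 or more in 2-month controls and 0.193 or less in both 12-month groups.

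Across the 12 libraries the pairs of genes were correlated to differing degrees. On log2(value + 1), Pearson's r was 0.82 between Prox1 and Reln, 0.67 between Flt4 and Reln and 0.49 between Prox1 and Flt4, while Pdpn had r of −0.57 with Prox1 and −0.51 with Reln. These values mix the differences between groups with those inside them. Of the deviations from the group means, r was 0.68 between Pdpn and Mmrn1, 0.62 between Prox1 and Mmrn1, 0.53 between Mmrn1 and Reln and 0.50 between Prox1 and Reln. It was 0.48 between Flt4 and Reln, 0.40 between Prox1 and Pdpn and 0.23 between Flt4 and Mmrn1. Negative values were −0.28 between Flt4 and Pdpn, −0.22 between Prox1 and Flt4 and −0.09 between Pdpn and Reln. All are descriptions over 12 libraries that share a normalization, with no test.

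Among 14436 other genes that reached 10 in 4 or more libraries, those most like each gene were named by r over the 12 libraries, with r of the deviations from group means given second. Picking the highest of 14436 values over 12 libraries favours a high r by the choice itself, and none was tested. Prox1 was followed by Ptprf, a receptor tyrosine phosphatase gene (0.97 and 0.64), Dusp11 (0.97 and 0.68) and Ergic2 (0.97 and 0.84). Flt4 was nearest to Ggta1, an enzyme gene of the alpha-galactose epitope (0.92 and 0.89), the transcription factor gene Nfic (0.92 and 0.89) and Farp1 (0.91 and 0.92). Pdpn was nearest to Dpyd, a gene of pyrimidine breakdown (0.95 and 0.82), Ackr2, the chemokine scavenging receptor of lymphatic endothelium (0.93 and 0.69), and the growth factor gene Fgf2 (0.93 and 0.85). Mmrn1 was nearest to Alcam, an adhesion molecule gene, at 0.95 and 0.96. It was followed by Washc5 (0.86 and 0.86) and Gpr89 (0.86 and 0.87). Reln was nearest to the imprinted gene H19 (0.90 and 0.75), Synpo2l (0.90 and 0.72) and the mitochondrial gene mt-Atp6 (0.89 and 0.75). Alcam had 346.0 normalized counts in 12-month Pdgfrb-KO, 364.5 in 12-month controls and 369.0 in 2-month controls on average, so its likeness to Mmrn1 lay inside the groups.

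Of 15 other genes used as markers of lymphatic endothelium, 2 were higher and 1 was lower with age, and 12 stayed short of the threshold, with a median log2 fold change of −0.19 beside −0.01 over all genes. Of all genes tested, 11.3% were higher and 11.4% were lower with age, and 4.96% and 4.46% in the knockout. These shares are the background for every list count at the adjusted threshold in the main fits, and the lists were not tested as sets. Counts at an unadjusted p have no share over all genes beside them and cannot be set against these. Ackr2 had 250, 365, 368 and 342 normalized counts in 12-month controls, against 82, 136, 159 and 87 in 2-month controls, and rose by 1.55 on the log2 scale (standard error 0.216, adjusted p = 0.000536 from limma). Clca3a1, a gene of lymphatic vessels, had 55, 57, 103 and 85 in 12-month controls, against 173, 263, 240 and 218 in 2-month controls, and fell by 1.60 on the log2 scale (standard error 0.215, adjusted p = 0.000425 from limma). The groups did not overlap in either gene. Marco, a scavenger receptor gene of macrophages and of lymph node lymphatics, rose by 0.99 (adjusted p = 0.0399 from limma), but this call was lost without 12-month control replicates 2, 3 or 4 or 2-month control replicates 1, 3 or 4, at adjusted p of 0.0577 to 0.111, and with no filter on low values at 0.195. Genes that did not pass included Nfatc1 (−0.29, adjusted p = 0.0693) and Ptx3 (0.47, adjusted p = 0.0662 from limma). Some of the 15 genes stood far above Prox1 and Flt4, such as Sox18 at 1097 to 2857 and Ptx3 at 1506 to 8872 over the 12 libraries. The part of cells other than lymphatic endothelium in the values of this list was not tested.

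In the knockout 2 of these 15 genes were higher and 13 did not pass in limma (9 of 15 at an unadjusted p under 0.05, in both directions), with a median of 0.08. Genes short of the threshold included Ackr2 (−0.50, adjusted p = 0.0822) and Nrp2 (−0.40, adjusted p = 0.113 from limma). Lyve1, the hyaluronan receptor gene of lymphatic endothelium and of tissue macrophages, had 2255, 2768, 2654 and 2367 normalized counts in 12-month Pdgfrb-KO libraries, against 743, 792, 1184 and 1060 in 12-month controls. It rose by 1.43 on the log2 scale (standard error 0.154, adjusted p = 0.000584 from limma). Marco had 3298, 4085, 1983 and 3421 in 12-month Pdgfrb-KO libraries, against 382, 469, 481 and 1033 in 12-month controls, and rose by 2.5 (standard error 0.296, adjusted p = 0.000825 from limma). Both genes are also macrophage genes. Macrophage genes moved in the same direction: 7 of 8 listed were higher in the knockout and 1, Cd68, did not pass, with a median log2 fold change of 1.15. Their summed values were 50091 to 79352 in 12-month Pdgfrb-KO libraries, 25049 to 36633 in 12-month controls and 12167 to 17884 in 2-month controls. The mannose receptor gene Mrc1 rose by 1.39 and the scavenger receptor gene Cd163 by 1.38. The part of macrophages in the values of Lyve1 and Marco was not tested.

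**Figure D5:**
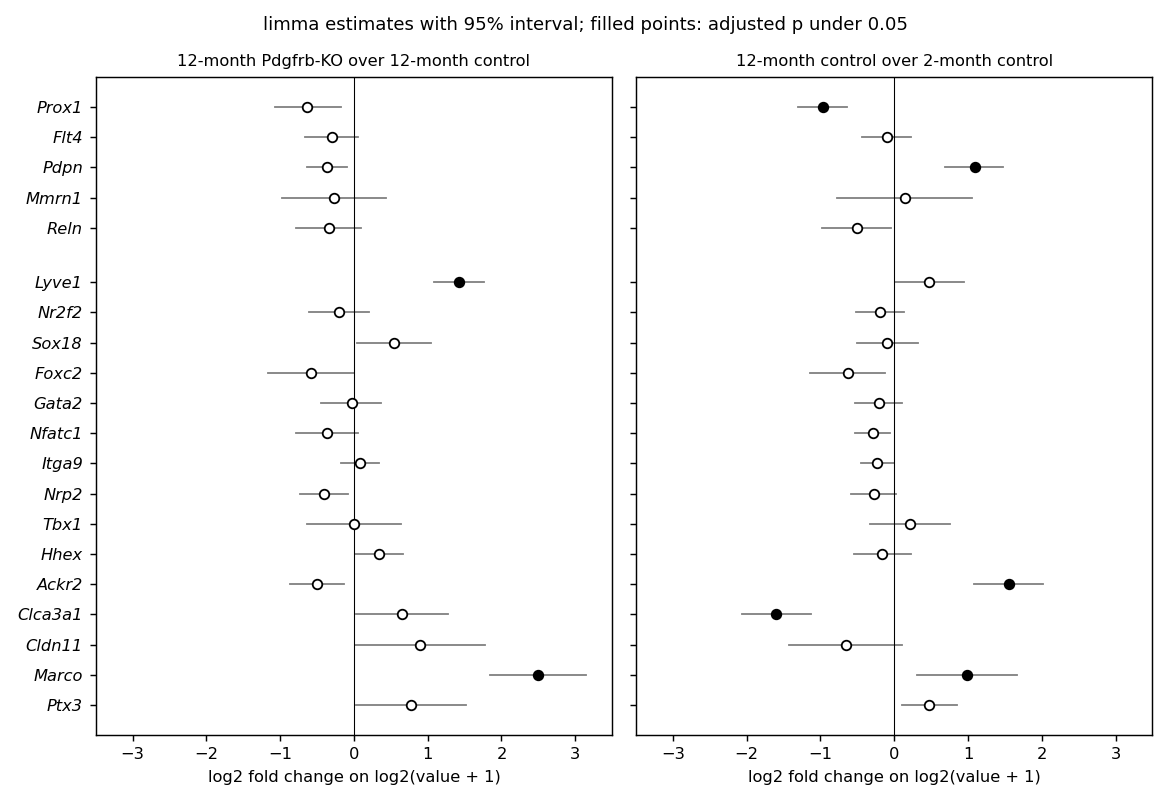
limma log2 fold changes on log2(value + 1) with 95% intervals (horizontal axes), for 12-month Pdgfrb-KO over 12-month control (left) and 12-month control over 2-month control (right). The 5 genes at the top are Prox1, Flt4, Pdpn, Mmrn1 and Reln, the 15 below are other lymphatic genes, and filled points passed the threshold. Prox1 and Pdpn are filled in the right panel and open in the left, and Lyve1 and Marco lie far to the right in the knockout.

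The VEGF-C axis holds the ligands, processing factors and receptors upstream and beside Flt4. Of 7 genes, 1 was higher and 1 was lower with age, and 5 stayed short of the threshold, with a median log2 fold change of 0.17. Vegfd, a ligand of VEGFR3, had 440, 469, 537 and 428 normalized counts in 12-month controls, against 168, 257, 261 and 183 in 2-month controls, and rose by 1.13 on the log2 scale (standard error 0.155, adjusted p = 0.000477 from limma). Kdr, the gene of VEGFR2, fell by 0.44 (adjusted p = 0.039 from limma), and this call was lost without 12-month control replicates 1, 3 or 4 or 2-month control replicates 1, 3 or 4, at adjusted p of 0.0553 to 0.11. In the knockout 1 of 7 was lower and 6 did not pass, with a median of −0.16. Vegfc, the main ligand of VEGFR3, had 181, 260, 138 and 199 in 12-month Pdgfrb-KO libraries, against 421, 537, 459 and 330 in 12-month controls. The groups did not overlap, and Vegfc fell by 1.18 (standard error 0.204, adjusted p = 0.00555 from limma). Vegfd in the knockout had a log2 fold change of 0.23 (adjusted p = 0.296 from limma).

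Of 9 genes whose products bind or transmit the signal of podoplanin and reelin, 8 were tested. With age Cd44, a podoplanin partner, rose by 0.39 (adjusted p = 0.0356 from limma) and the ezrin gene Ezr, which links podoplanin to actin, fell by 0.54 (adjusted p = 0.0237 from limma), while 6 did not pass. The Cd44 call was lost without 12-month control replicates 2, 3 or 4 or 2-month control replicates 1, 3 or 4 (adjusted p 0.0605 to 0.107), and the Ezr call without 2-month control replicates 2, 3 or 4 (0.0505 to 0.073). The reelin receptor genes Vldlr (0.44, adjusted p = 0.0914) and Lrp8 (−0.27, adjusted p = 0.365) did not pass with age. In the knockout 0 of 8 passed in limma (0 before adjustment at p under 0.05 and 0 in each alternative). The medians were −0.05 with age and −0.07 in the knockout. Clec1b, the platelet receptor of podoplanin, had 6 to 27 over all libraries, and Dab1, the reelin adaptor, did not pass the filter, with values of at most 11.

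In the Ccr7 axis 2 genes were tested. Ackr4, which scavenges Ccl19 and Ccl21, had 47, 69, 63 and 63 normalized counts in 12-month controls, against 25, 42, 27 and 36 in 2-month controls, and rose by 0.89 on the log2 scale with age (standard error 0.227, adjusted p = 0.0157 from limma). Ccr7 had a log2 fold change of −0.51 with age (adjusted p = 0.0738) and 0.05 in the knockout (adjusted p = 0.916 from limma). Ackr4 did not pass in the knockout (−0.59, adjusted p = 0.142, unadjusted p under 0.05). Of 9 lymphotoxin axis genes, 1 was higher and 8 did not pass in each comparison, with a median of −0.03 in both. These were the ligand gene Tnfsf14 with age (0.72, adjusted p = 0.0149) and the receptor gene Tnfrsf11a in the knockout (0.75, adjusted p = 0.0365 from limma). The Tnfrsf11a call was lost without knockout replicates 1, 2 or 3 or 12-month control replicates 1, 2 or 4, at adjusted p of 0.0646 to 0.0882.

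Of 9 genes of lymph node reticular stroma, 8 were tested, and with age 2 were higher and 1 was lower, and 5 stayed short of the threshold, with a median log2 fold change of 0.29. Tnfsf13b, which encodes the B cell survival factor BAFF, had 183, 205, 183 and 159 normalized counts in 12-month controls, against 88, 72, 108 and 106 in 2-month controls, and rose by 0.97 (adjusted p = 0.00155 from limma). Bst1 rose by 0.73 with age (adjusted p = 0.0307), a call lost without 12-month control replicates 2, 3 or 4 or 2-month control replicates 3 or 4 (adjusted p 0.0618 to 0.0852), and the cytokine receptor gene Il6st fell by 0.58 (adjusted p = 0.00685 from limma). In the knockout Bst1 had 567, 395, 405 and 360 in 12-month Pdgfrb-KO libraries, against 93, 182, 172 and 191 in 12-month controls, and rose by 1.46 (standard error 0.233, adjusted p = 0.00361 from limma). Cxcl9, an interferon-induced chemokine gene, had 525, 457, 333 and 442 in 12-month Pdgfrb-KO libraries, against 855, 1028, 1441 and 878 in 12-month controls, and fell by 1.24 (standard error 0.185, adjusted p = 0.00242 from limma). The other 6 did not pass in the knockout, with a median over the 8 of 0.03. Grem1, a gene of reticular cells of the T cell zone, did not pass the filter, since it reached 10 in only 2 of the 8 libraries of each comparison. Macrophage genes had a median log2 fold change of 0.83 with age and 1.15 in the knockout. The part of macrophages and other cells in the values of this list was not tested.

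High endothelial venules are the vessels through which lymphocytes enter a lymph node. Of their genes, Glycam1 and Madcam1 were lower with age and higher in the knockout, 2 comparisons that share the 12-month controls. The other venule genes tested, Fut7, Chst2 and Ackr1, did not pass in both. Of 8 genes of these venules and of follicular dendritic cells, 7 were tested. With age 1 was higher, 3 were lower and 3 stayed short of the threshold, and in the knockout 3 were higher and 4 did not pass, with medians of −0.30 and 0.36. Glycam1, a mucin ligand of L-selectin, had 263, 216, 257 and 109 normalized counts in 12-month Pdgfrb-KO libraries, 47, 32, 34 and 61 in 12-month controls, and 121, 189, 149 and 95 in 2-month controls. The 12-month controls lay below both other groups. Glycam1 fell by 1.65 on the log2 scale with age (adjusted p = 0.000955) and rose by 2.22 in the knockout (adjusted p = 0.00171 from limma). Madcam1, an adhesion molecule of venules and follicular dendritic cells, had 40, 53, 23 and 33 in 12-month Pdgfrb-KO libraries, 16, 9, 10 and 18 in 12-month controls, and 58, 37, 73 and 60 in 2-month controls. It fell by 2.04 with age (adjusted p = 0.000678) and rose by 1.42 in the knockout (adjusted p = 0.028 from limma), the second call being lost without knockout replicates 1 or 2 or 12-month control replicates 2 or 3 (adjusted p 0.0705 to 0.079). The sulfotransferase gene Chst2 fell by 0.61 with age (adjusted p = 0.0221), lost without 12-month control replicates 1 or 4 or 2-month control replicates 1 or 4 (0.0513 to 0.0729). Cr2 rose by 0.58 with age (adjusted p = 0.0289), lost without 12-month control replicates 3 or 4 or 2-month control replicates 1, 3 or 4 (0.0665 to 0.0855). The fucosyltransferase gene Fut7 rose by 0.86 in the knockout (adjusted p = 0.0411 from limma), lost without knockout replicates 1 or 2 or any of the 12-month controls (0.065 to 0.112). With age Fut7 did not pass (0.06, adjusted p = 0.868 from limma), nor did Chst2 in the knockout (0.10, adjusted p = 0.729 from limma). Ackr1 passed in neither, at −0.30 with age (adjusted p = 0.26) and 0.36 in the knockout (adjusted p = 0.258 from limma).

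Lymphocytes fill a lymph node and also live in fat, and their genes do not tell these sources apart. Of the 9 B cell genes reported, 0 passed with age in limma (2 at an unadjusted p under 0.05, 0 to 4 in the alternatives, the highest without 2-month control replicate 2, median log2 fold change 0.30). In the knockout 0 passed in limma (5 before adjustment at p under 0.05, 0 to 6 in the alternatives, the highest with the replicate number as a block), with a median of 0.42. Summed B cell values were 20195 to 38795 in 12-month Pdgfrb-KO libraries, 17675 to 26821 in 12-month controls and 13957 to 24229 in 2-month controls. Of 12 T cell genes, 4 were lower and 8 did not pass with age (Cd4, Lef1, Tcf7 and Cd5, at −0.80, −0.80, −0.59 and −0.65), and 0 passed in the knockout in limma (1 at an unadjusted p under 0.05, 0 to 1 in the alternatives). The medians were −0.24 with age and −0.30 in the knockout. The Tcf7 call was lost without 12-month control replicate 3 or any of the 2-month controls (adjusted p 0.0571 to 0.112), and the Cd5 call without 2-month control replicates 1, 3 or 4 (0.0717 to 0.0722). With no filter on low values the adjusted p was 0.161 for Tcf7, 0.0987 for Cd5 and 0.0536 for Lef1, so these calls were lost there as well. The part of lymph node content in the values of Pdpn, Glycam1 and Madcam1 was not tested.

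Other cell types that make some of these genes, or that differ between the preparations, moved as well. Of 10 genes of fibroblastic progenitors, a source of Pdpn, 6 were higher, 2 were lower (Col1a1 and Col1a2) and 2 did not pass with age, with a median log2 fold change of 0.41. In the knockout 2 were higher (Col1a1 and Col1a2), 3 were lower (Dcn, Dpp4 and Pi16) and 5 did not pass, with a median of −0.01. Dcn, the decorin gene, changed by 0.90 with age and −0.67 in the knockout, and Pi16 by 1.08 and −1.13. The Col1a2 call in the knockout was lost with quantile normalization (adjusted p = 0.396) and the Pi16 call with age with no filter on low values (adjusted p = 0.0681). Of 10 mural genes, 6 were lower, 1 was higher (Rgs5) and 3 did not pass with age, and 0 passed in the knockout in limma (5 at an unadjusted p under 0.05, 0 to 4 in the alternatives, the highest with the replicate number as a block), with medians of −0.61 and −0.44. Macrophage genes with age were higher in 5 of 8 (Adgre1, C1qa, Cd163, Csf1r and Lyz2), with a median of 0.83. Dendritic cell genes changed in 3 of 9 with age (Cd209a 1.30, Itgax 1.40 and Zbtb46 −0.39) and in 1 of 9 in the knockout (Itgax −1.23), with medians of 0.52 and −0.02. The Zbtb46 call was lost without 12-month control replicates 1 or 4 or 2-month control replicates 3 or 4 (adjusted p 0.0619 to 0.088).

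All 6 skeletal muscle genes were lower in the knockout, with a median log2 fold change of −1.81, and their summed values were 582 to 1543 in 12-month Pdgfrb-KO libraries, 2422 to 6000 in 12-month controls and 1791 to 7084 in 2-month controls. With age 0 of the 6 passed in limma (0 at an unadjusted p under 0.05, 0 to 1 in the alternatives, median −0.36). The mesothelial genes Msln, Upk3b, Upk1b, Lrrn4 and Wt1 reached at most 24 in any library and did not pass the filter, and the epithelial keratin gene Krt19 did not pass in either comparison. Of 6 megakaryocyte and platelet genes, a source of Mmrn1, 3 were tested, 1 was higher with age (Itga2b, 0.47, adjusted p = 0.0461) and 0 passed in the knockout in limma (0 before adjustment at p under 0.05 and 0 in each alternative). The medians were 0.47 and 0.28. The Itga2b call was lost without 12-month control replicates 1, 2 or 4 or 2-month control replicates 2, 3 or 4, at adjusted p of 0.0641 to 0.13. The part of these cells in the values of Prox1, Flt4, Pdpn, Mmrn1 and Reln was not tested.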

How the data were processed

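SVF RNA of 12 mice was sequenced by the authors from polyadenylated RNA with a directional kit. After trimming with Trim Galore 0.6.0 and mapping to GRCm38 with STAR 2.7.0e, the authors deposited each value as a score, the gene count divided by a DESeq2 1.26.0 size factor and rounded. The counting tool and its strand setting are not given in the sources used here. One table holds both control ages and the other the 12-month controls and the knockout, whose shared libraries had equal values in 100% of genes. There were 0 other columns of values.

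Groups came from the labels. Each comparison was fitted on its own 8 libraries with limma 3.58.1 in R 4.3.3 on log2(value + 1), with a trend and robust variance, for genes that reached 10 in 4 or more libraries, and adjusted over all genes tested. The test was tried on simulated data. Size factors, and from them the counts behind a library, were estimated from gaps in the low values. The knockout replicate 4 estimate may be ambiguous. Coordinates and transcripts are from GENCODE vM21. Tables and figures used Python 3.11.15, numpy 2.4.6, pandas 2.3.3 and matplotlib 3.10.9. The genes and the 17 lists were chosen with earlier results of these data known.

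Named were the 7 symbols, Pdgfrb, the 3 genes most like each by r, and from each list, in order of p, at most 4 genes past the threshold and 2 short of it. Where 5 or fewer genes of a list passed in a direction, all are named. A gene of the B cell list is not reported here, and the counts and sums of that list leave it out.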

Additional observations from a re-analysis of the deposited data

How the results depend on the processing

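Each comparison was refitted under 18 alternatives, which were pseudocounts of 0.5 and 5, no filter, a mean of at least 50, a rescaling by the median ratio, quantile normalization, no trend or robust variance, weights per library, a replicate block, a fit of all 12 libraries, and each library left out. With age the number of genes past the threshold among the 7 symbols was 2, and 2 to 3 with a library left out. Over all genes it was 3727, and 2405 to 4018 with a library left out, the lowest without 2-month control replicate 4. In the knockout the number among the 7 symbols was 0, also 0 with any library left out, and 1 in the fit of 12 libraries. Over all genes it was 1539, 2600 in the fit of 12 libraries and 875 to 1925 with a library left out, and it was 909 without 12-month control replicate 1, 896 without replicate 2, 875 without replicate 3 and 927 without knockout replicate 1. Signs turned only in differences that had not passed. With a library left out, Flt4 with age was −0.19 to 0.02, and Mmrn1 was −0.17 to 0.40 with age and −0.49 to 0.04 in the knockout. Flt4 with age was 0.02 without 12-month control replicate 1 and 0.02 without 2-month control replicate 4. Mmrn1 with age was −0.03 with weights, −0.17 without 12-month control replicate 3 and −0.13 without 2-month control replicate 1, and in the knockout 0.04 without 12-month control replicate 3.

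Of 1292 refits of single named genes, 1170 kept direction and side of the threshold, 112 lost a call, 4 gained one and 6 changed sign. Of 612 refits of list counts, 526 were within 1.5 times the value given. The calls lost without single libraries were also lost under at least 1 other setting, except Madcam1 in the knockout.

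Same-numbered libraries deviated together in some pairs only (r of −0.22 to 0.16 with age and −0.02 to 0.37 in the knockout), so the numbers were not taken as pairs. In the knockout comparison replicates 2 and 3 had r of 0.37 and 0.23 and correlated best with their own number, while replicates 1 and 4 did not, and with age only replicate 1 (0.16) did. With the replicate block 3 of the genes passed with age, Reln being the third, and 0 in the knockout, and over all genes 3116 passed with age and 2380 in the knockout.

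Ccl19 lay near the limit that a count of 0 allows, and the knockout libraries were the shallowest. With 4 mice a group, the 95% intervals of Flt4, Mmrn1 and Reln hold 0 in the knockout, and those of Flt4 and Mmrn1 hold it with age.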
